A study of Oryctolagus cuniculus with 134 samples.

Results

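The pulmonary valve of rabbits on a cholesterol-rich diet combined with cardiac irradiation (IR/CHT) was compared with that of rabbits on chow diet (Ctrl). Libraries were chosen by their tissue and treatment labels alone, which gave 7 IR/CHT and 7 Ctrl libraries, 14 of all the libraries of the series. All animals were male New Zealand White rabbits that entered the protocol at 12 weeks of age and were followed for 16 weeks. Ctrl rabbits received chow without supplement, whereas IR/CHT rabbits received a diet with 0.3% cholesterol, vitamin D2 scaled to body weight from a base of 25000 U per day for 15 days, and, after 8 weeks of diet, 24 Gy of X-rays in 3 fractions of 8 Gy at 48 h intervals. Rabbits of the CHT group (6 libraries of the pulmonary valve) received the same diet and vitamin D2 without irradiation, and those of the Lard group (7 libraries) a diet with 5% lard and vitamin D2. Diet, vitamin D2 and irradiation thus differ together between IR/CHT and Ctrl and cannot be told apart in that comparison. The beam was aimed at the aortic valve and thoracic aorta, and the dose that reached the pulmonary valve is not given in the sources used here. Each library was made from 10 ng of total RNA of a dissected valve.

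Cells hold their cholesterol within narrow bounds through a pair of opposed transcriptional systems. When sterols are scarce, the SREBP2 transcription factor raises the genes of cholesterol synthesis; when sterols are plentiful, SREBP2 is retained in the endoplasmic reticulum by INSIG proteins, and oxysterols activate the liver X receptors (LXR), which raise the genes of cholesterol export. The pulmonary valve closes the outlet of the right ventricle and is exposed to venous blood at low pressure. It consists of interstitial cells in a layered collagenous, elastic and proteoglycan matrix, covered by endothelium, with a small population of resident macrophages.

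Library totals ranged from 14063949 to 21214774 read pairs counted on genes in the 14 libraries, and 10 of the 14 libraries were on plate 1 and 4 on plate 2, with 5 and 2 of each group. Of the 29587 genes in the tables, 14716 carry a symbol, and 14450 genes had enough counts to be tested in the pulmonary valve. Valve interstitial cell markers were found for 11 of 12 genes, all expressed, and their summed level was 18370 to 22970 CPM (counts relative to the TMM-scaled library total) in Ctrl and 18670 to 26170 CPM in IR/CHT, led by the intermediate filament gene VIM (mean 7989 CPM) and the matricellular gene POSTN (mean 5847 CPM). Mitochondrially encoded genes took 0.271% to 1.36% of counts in Ctrl and 0.244% to 1.04% in IR/CHT.

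A pair of IR/CHT libraries stood apart from the rest. In library L275, the summed level of 8 endothelial markers was 107 CPM, against 1154 to 1600 CPM in the other IR/CHT libraries and 1290 to 1894 CPM in Ctrl, and the summed level of 12 macrophage markers was 339 CPM, against 640 to 815 CPM in Ctrl. PECAM1, an adhesion molecule of endothelium, was at 18.9 CPM in L275, and the scavenger receptor gene CD163 at 7.60 CPM. In library L176, the summed level of 11 smooth muscle markers was 25800 CPM, against 2661 to 4758 CPM in the other IR/CHT libraries and 2667 to 3952 CPM in Ctrl, with MYH11, the smooth muscle myosin heavy chain, at 17930 CPM. Heart muscle markers (18 of 24 found, with TCAP at 0 in all 14 libraries) varied within both groups, from 57.7 to 6478 CPM in Ctrl and from 79.4 to 1966 CPM in IR/CHT. Values without L275, L176 or both are therefore given beside the results they move most. In bulk RNA, fewer cells of a type and less RNA per cell cannot be told apart.

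**Figure D1:**
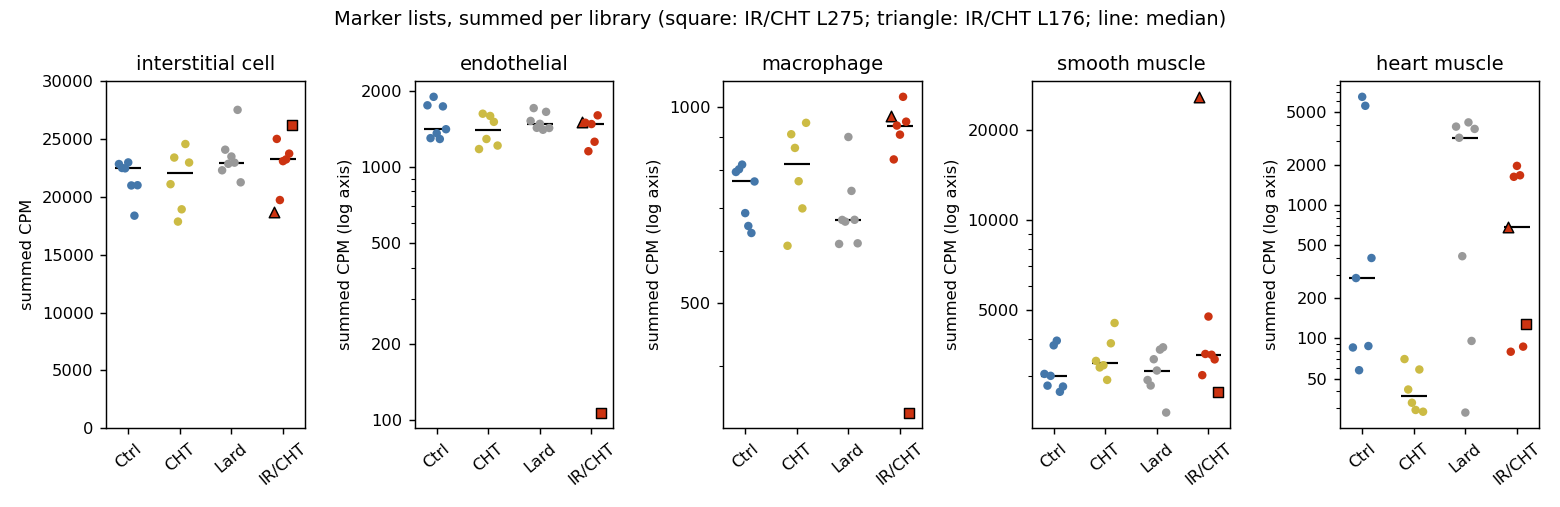
Summed expression (CPM) of the marker genes of 5 cell types in each of the 27 pulmonary valve libraries, by group, with a linear axis for interstitial cells and logarithmic axes for the others; points are libraries and lines medians. L275 (square) lies at 107 CPM for endothelial and 339 CPM for macrophage markers, and L176 (triangle) at 25800 CPM for smooth muscle markers.

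Differentially expressed genes (DEGs) were those with an edgeR adjusted p under 0.05 and a fold change over 1.5. In the pulmonary valve, 102 genes differed between IR/CHT and Ctrl, which is 0.706% of the 14450 genes tested. Of these, 84 were higher (0.581% of genes tested) and 18 lower (0.125%), with median log2 fold changes of 1.39 and -1.27, beside a median of 0.02 over all genes tested. Of the 18 lower genes, 10 belonged to cholesterol synthesis, and the higher genes included LXR targets and genes of macrophages. On plate 1 alone (5 against 5 libraries), 99 DEGs were found, of which 60 were among the 102; plate 2 alone (2 against 2) gave 2, both among them; and plate as a covariate gave 112. DESeq2 called 303 genes, which included all 102. Without L275 there were 123 DEGs, without L176 there were 50, and without both 87, of which 60 were among the 102. The count also fell to 60, 62, 63, 64 and 67 without Ctrl replicates L242, L167, L200, L263 and L153, respectively.

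Of the 38 DEGs named by the rule, 33 were called on plate 1 alone and 2 on plate 2 alone.

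Genes of cholesterol synthesis fell. Of the 22 genes in the list for this pathway, 16 were tested, 10 were lower in IR/CHT (background for lower DEGs 0.125%), none was higher, and the median log2 fold change of the 16 was -0.87. The pathway begins with HMGCS1, the cytosolic HMG-CoA synthase (ENSOCUG00000003569), which lay between 24.5 and 57.7 CPM in Ctrl (median 38.6) and between 11.4 and 17.0 CPM in IR/CHT (median 14.6). The groups did not overlap, and the log2 fold change was -1.45 (SE 0.15, edgeR adjusted p = 1.1e-06).

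FDPS, which makes farnesyl diphosphate, was lower by a smaller margin, with 7.22 to 15.1 CPM in Ctrl and 4.91 to 9.24 CPM in IR/CHT (log2 fold change of -0.86, SE 0.19, edgeR adjusted p = 0.021), and its groups overlapped. FDFT1, the squalene synthase that commits farnesyl diphosphate to sterols, fell by 0.88 on the log2 scale (SE 0.11, edgeR adjusted p = 2.4e-05), from 102 to 174.03 CPM in Ctrl (median 142) to 71.1 to 86.0 CPM in IR/CHT (median 75.0). SQLE, the squalene epoxidase, showed the largest fall of the pathway. It lay between 13.4 and 43.2 CPM in Ctrl (median 21.4) and between 3.82 and 6.45 CPM in IR/CHT (median 5.37), a log2 fold change of -2.27 (SE 0.25, edgeR adjusted p = 2.33e-06) without overlap.

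The enzymes that turn lanosterol into cholesterol fell as well. CYP51A1, the lanosterol demethylase, was at 26.5 to 59.5 CPM (median 45.3) in Ctrl and 11.7 to 21.3 CPM (median 15.6) in IR/CHT, a log2 fold change of -1.46 (SE 0.16, edgeR adjusted p = 1.1e-06). MSMO1, the C4-methylsterol oxidase, was at 11.8 to 28.7 CPM (median 18.1) in Ctrl and 2.87 to 6.93 CPM (median 4.54) in IR/CHT, a log2 fold change of -2.0 (SE 0.21, edgeR adjusted p = 1.1e-06). NSDHL, which acts with MSMO1 in removing these methyl groups, went from 19.1 to 34.5 CPM (median 28.0) to 8.69 to 16.2 CPM (median 12.3), a log2 fold change of -1.09 (SE 0.13, edgeR adjusted p = 9.51e-06). In all of these genes the lowest Ctrl library was above the highest IR/CHT library. SC5D, the lathosterol desaturase, also had separate groups (12.9 to 18.05 against 8.01 to 10.9 CPM, log2 fold change of -0.82, SE 0.14, edgeR adjusted p = 0.00103). The 6 tested members of the list that were not lower DEGs did not pass the test, and the highest log2 fold change in the list was 0.12. Without L275 the list still held 10 lower DEGs, without L176 it held 8 (FDPS was among the calls lost) and without both 9, while plate 2 alone, with 2 libraries a group, held none.

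**Figure D2:**
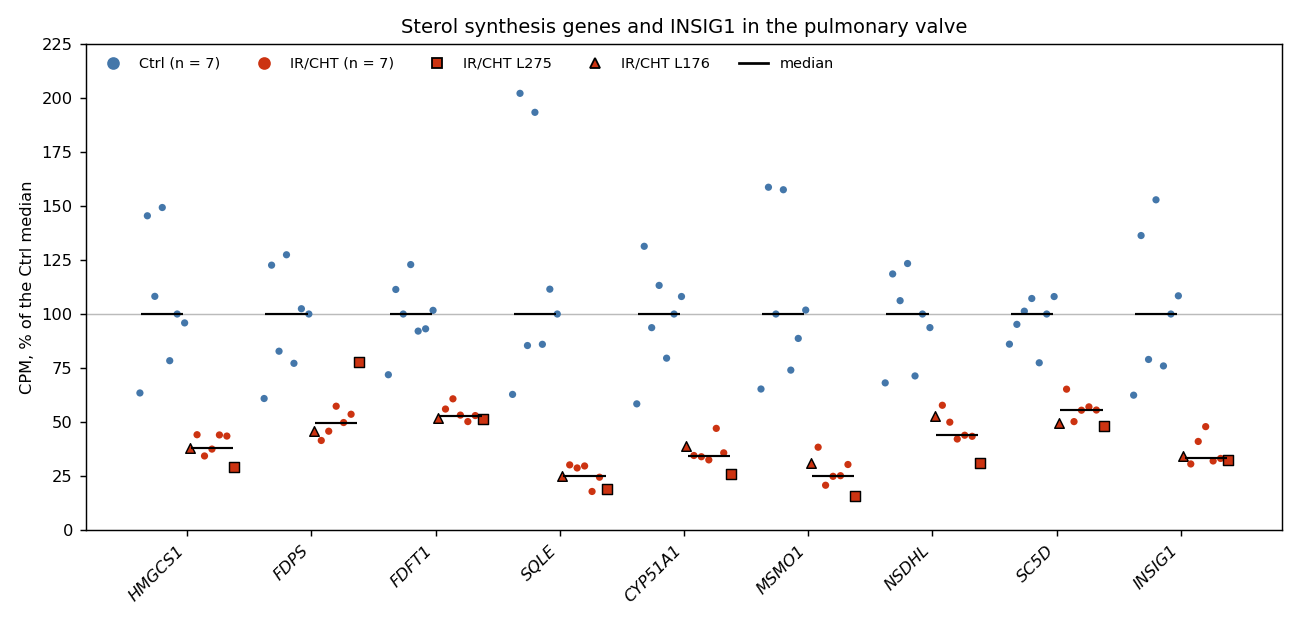
Expression of 8 cholesterol synthesis genes in pathway order and INSIG1 in the 7 Ctrl and 7 IR/CHT libraries of the pulmonary valve, as a percentage of the Ctrl median of each gene on a linear axis; points are libraries, and lines medians. The IR/CHT points, including L275 (square) and L176 (triangle), lie below all Ctrl points for all genes but FDPS.

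Genes of sterol uptake and SREBP control changed in both directions. Of 7 tested genes in that list, 2 were lower (background for lower DEGs 0.125%) and 1 higher (background for higher DEGs 0.581%) in IR/CHT. The median log2 fold change was -0.14 with all libraries and -0.52 without L275. INSIG1, which retains the SREBP complex in the endoplasmic reticulum and is itself an SREBP target, fell from 12.1 to 29.6 CPM (median 19.4) to 5.92 to 9.26 CPM (median 6.41), a log2 fold change of -1.51 (SE 0.20, edgeR adjusted p = 4.56e-05). MYLIP encodes a ubiquitin ligase and is an LXR target. It rose from 129 to 173.5 CPM in Ctrl (median 155.3) to 219 to 282 CPM in IR/CHT (median 250.4), a log2 fold change of 0.71 with the small SE of 0.09 (edgeR adjusted p = 2.48e-05).

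LXR targets rose. Of 15 genes in the list, 7 were tested, 5 were higher in IR/CHT (background for higher DEGs 0.581%) and none was lower, with a median log2 fold change of 0.81. ABCA1, the transporter that exports cholesterol to apolipoproteins, had the smallest p-value of all genes. It lay between 76.2 and 152.5 CPM in Ctrl (median 109) and between 657 and 1017 CPM in IR/CHT (median 801), so that the lowest IR/CHT library was far above the highest Ctrl library. The log2 fold change was 2.86 (SE 0.15, edgeR adjusted p = 3.22e-13), and it was called with plate 1 alone, with plate 2 alone and without each library in turn. NR1H3, which encodes LXRα itself, rose from 1.78 to 6.34 CPM (median 4.15) to 8.11 to 25.1 CPM (median 13.3), a log2 fold change of 1.82 (SE 0.28, edgeR adjusted p = 0.000422). PLTP, a phospholipid transfer protein, rose from 36.8 to 54.8 CPM (median 48.0) to 63.3 to 199.8 CPM (median 116.7), a log2 fold change of 1.42 (SE 0.21, edgeR adjusted p = 0.000246), with L176 and L275 the highest of its IR/CHT libraries. Without both libraries the log2 fold change of PLTP was 1.08 and its edgeR adjusted p = 0.00261. The fifth LXR target was LPCAT3, an acyltransferase of phospholipids (mean 7.99 ± 1.48 CPM in Ctrl and 14.04 ± 4.22 CPM in IR/CHT, SD, n = 7 each; log2 fold change of 0.81, SE 0.18, edgeR adjusted p = 0.0245), whose groups overlapped. It was not called without L176, where the list held 4 DEGs, and was called without both libraries.

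APOD, which encodes the lipid-binding lipocalin apolipoprotein D, had the largest rise among DEGs with a symbol and a mean of at least 5 CPM. It varied widely among the Ctrl libraries, from 5.80 to 61.8 CPM (median 22.9), and lay between 355 and 1713 CPM in IR/CHT (median 1262). The groups were nonetheless separate, with a log2 fold change of 5.27 (SE 0.65, edgeR adjusted p = 2.48e-05). Of the 38 named DEGs, APOD and ABCA1 were the 2 that were called under all 24 alternatives run for them.

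Genes known from lipid-laden and phagocytic macrophages rose in part, and which cells of the valve expressed them was not tested. GPNMB, a transmembrane glycoprotein of lipid-laden macrophages, lay between 2.90 and 7.70 CPM in Ctrl (median 6.59) and between 15.5 and 62.9 CPM in IR/CHT (median 26.8), with no overlap and a log2 fold change of 2.40 (SE 0.29, edgeR adjusted p = 1.14e-05). In L275, where the macrophage markers were low, GPNMB was at 23.4 CPM. In the list for lipid uptake and foam cells, GPNMB and the scavenger receptor gene MSR1 were the only DEGs among 17 tested genes with all libraries (background for higher DEGs 0.581%), and the median log2 fold change was 0.49. Without L275 the lysosomal lipase gene LIPA was called as well (log2 fold change of 0.63, edgeR adjusted p = 0.000579). MSR1 was at 5.93 to 16.1 CPM in Ctrl (median 10.6), and at 26.5 CPM or more in all IR/CHT libraries except L275, which was at 5.68 CPM, below every Ctrl library. With all libraries its log2 fold change was 1.57 (SE 0.31, edgeR adjusted p = 0.00978), and without L275 it was 1.76 (edgeR adjusted p = 5.33e-05). MSR1 was not called with only the Ctrl and IR/CHT libraries in the model or on plate 2 alone.

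TIMD4, a phosphatidylserine receptor of resident macrophages, was at or under 3 counts in every Ctrl library and at 11 to 255 counts in IR/CHT (0.753 to 15.9 CPM, median 2.76). Against a floor of 3 counts per library its mean was at least 24.8-fold higher in IR/CHT (edgeR adjusted p = 0.000183), and at least 14-fold higher without L549, its highest library. MERTK, a receptor for the uptake of dying cells, had narrow groups of 46.5 to 60.2 CPM in Ctrl (median 50.8) and 61.1 to 135 CPM in IR/CHT (median 79.3), the lowest being L275, with a log2 fold change of 0.76 (SE 0.13, edgeR adjusted p = 0.000944). MPEG1, which encodes the pore-forming perforin-2 of macrophages, was at 12.4 to 19.1 CPM in Ctrl (median 17.7) and 9.31 to 93.3 CPM in IR/CHT (median 55.4), the lowest being again L275. Its log2 fold change was 1.84 (SE 0.28, edgeR adjusted p = 0.000326) with L275 and 2.03 (edgeR adjusted p = 5.78e-08) without it. MMP12, the macrophage elastase, had 0 to 4 counts per library in Ctrl and 4 to 94 counts in IR/CHT, which is 0 to 0.197 CPM against 0.274 to 5.25 CPM (edgeR adjusted p = 0.00117).

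Of 12 tested macrophage markers, 2 were higher in IR/CHT, MSR1 and the scavenger receptor gene MARCO (background for higher DEGs 0.581%). None was lower (background for lower DEGs 0.125%), and the median log2 fold change was 0.55. MARCO had 0 to 12 counts per library in Ctrl and 1 to 114 in IR/CHT, where L275 was lowest (log2 fold change of 4.11, SE 0.93, edgeR adjusted p = 0.0276), and it was not called in 8 of the 14 fits that left out 1 library. Of the 12, 10 had positive and 2 negative log2 fold changes. The negative ones were MRC1 and CD163, neither of which passed the test. MRC1, the mannose receptor, was at 350.2 ± 55.1 CPM in Ctrl and 294 ± 128 CPM in IR/CHT (SD, n = 7 each, log2 fold change of -0.25, SE 0.30, edgeR adjusted p = 0.72), and CD163 at 94.4 ± 13.3 and 90.4 ± 37.7 CPM (log2 fold change of -0.06, SE 0.31, edgeR adjusted p = 0.944). Without L275, the lowest library for both, their log2 fold changes were -0.05 and 0.14, and neither was called. CD68, a lysosomal glycoprotein, was at 19.5 ± 3.60 and 28.5 ± 5.86 CPM and missed the threshold (log2 fold change of 0.55, SE 0.15, edgeR adjusted p = 0.0776). The summed level of the list was 640 to 815 CPM in Ctrl and 339 to 1036 CPM in IR/CHT, and 830 to 1036 CPM in IR/CHT without L275. Without L275, 4 markers were called, without L176, 1, and without both, 3.

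**Figure D3:**
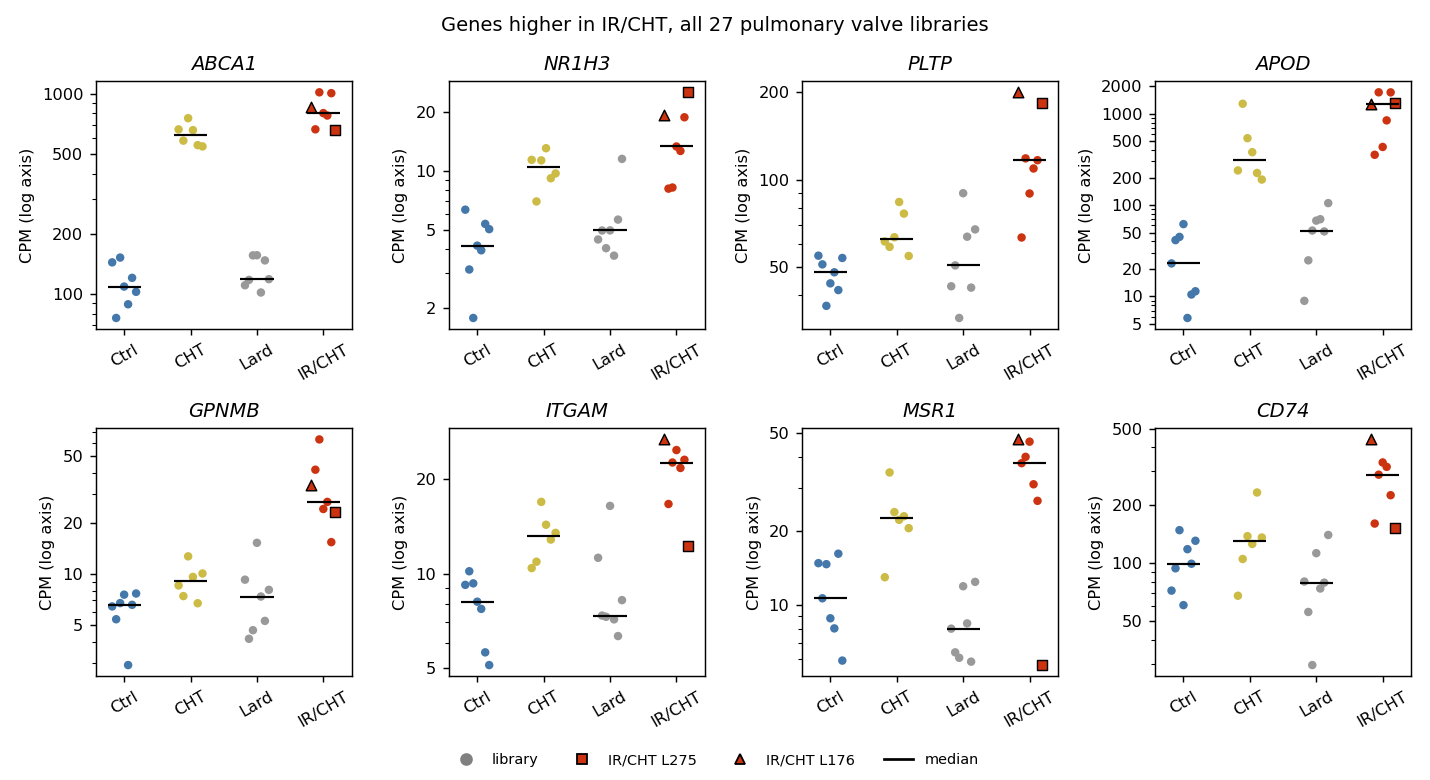
Expression (CPM, logarithmic axes) of 8 genes that were higher in IR/CHT than in Ctrl, in the 27 pulmonary valve libraries of the 4 groups; points are libraries and lines medians. ABCA1 was at 657 to 1017 CPM in IR/CHT and 546.4 to 756 CPM in CHT, whereas GPNMB was at 15.5 to 62.9 CPM in IR/CHT and 6.74 to 12.8 CPM in CHT; L275 (square) was the lowest IR/CHT library for ITGAM, MSR1 and CD74.

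Some genes of leukocyte adhesion, complement and antigen presentation were higher in IR/CHT. ITGAM, the CD11b chain of the integrin that binds complement fragments, was at 5.11 to 10.2 CPM in Ctrl (median 8.14) and 12.3 to 26.8 CPM in IR/CHT (median 22.6), with a log2 fold change of 1.42 (SE 0.21, edgeR adjusted p = 0.000183). ITGB2, its CD18 partner chain, was at 3.20 to 9.62 CPM (median 8.26) and 10.8 to 19.4 CPM (median 15.4), a log2 fold change of 1.14 (SE 0.25, edgeR adjusted p = 0.021). ITGAL, the CD11a chain, was at 0.281 to 1.84 CPM and 2.51 to 8.81 CPM (log2 fold change of 2.22, SE 0.49, edgeR adjusted p = 0.0242). None of these integrin chains overlapped between groups, but ITGB2 and ITGAL lost the call without L176 (log2 fold change 1.08 and 2.00, edgeR adjusted p = 0.0627 and 0.0749). ITGB2 also lost it without Ctrl replicate L153, and ITGAL in 6 of the 14 fits that left out 1 library. ITGB2 and ITGAL were the 2 DEGs among 14 tested genes of endothelial and leukocyte adhesion (background for higher DEGs 0.581%). Of the 14 genes, 7 had positive and 7 negative log2 fold changes, with a median of 0.09. That list held 3 DEGs without L275 and 0 without L176. ITGAM, ITGB2 and the hexokinase gene HK3 were the 3 DEGs among 27 tested genes of neutrophil degranulation (background for higher DEGs 0.581%), whose median log2 fold change was 0.63. HK3 was at 0.147 to 0.456 CPM in Ctrl and 0.355 to 2.79 CPM in IR/CHT (log2 fold change of 2.08, SE 0.47, edgeR adjusted p = 0.0273), and it was not called without L176 (edgeR adjusted p = 0.0907) or without each of 5 Ctrl libraries. Neutrophil degranulation held 8 DEGs without L275, 1 without L176 and 5 without both.

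Of 12 tested complement genes, 4 were higher (background 0.581%) and none was lower, with a median log2 fold change of 0.57. Besides ITGAM these were CFP, C1R and C1S. CFP encodes properdin, which stabilises the alternative pathway convertase, and was at 0.782 to 1.70 CPM in Ctrl (median 1.22) and 2.32 to 5.91 CPM in IR/CHT (median 3.14; log2 fold change of 1.45, SE 0.25, edgeR adjusted p = 0.00196). C1R, a protease of the classical pathway, was at 141 to 264.1 CPM (median 191.6) and 310 to 987 CPM (median 410.1), without overlap (log2 fold change of 1.32, SE 0.24, edgeR adjusted p = 0.00273); its highest library was L176, without which the log2 fold change was 1.04 and the edgeR adjusted p = 0.00591. C1S, its partner protease, overlapped between groups (262.7 ± 91.2 CPM in Ctrl and 468 ± 106 CPM in IR/CHT, SD, n = 7 each; log2 fold change of 0.83, SE 0.19, edgeR adjusted p = 0.0306), and was not called without L176 or without both L275 and L176, where the list held 3 DEGs.

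Of 6 tested genes of MHC class II presentation, 3 were higher (background 0.581%), and all 6 had positive log2 fold changes with a median of 1.30. CD74, the invariant chain that guides class II molecules, was at 60.4 to 148 CPM in Ctrl (median 99.2) and 151.3 to 439.5 CPM in IR/CHT (median 288), with a log2 fold change of 1.41 (SE 0.30, edgeR adjusted p = 0.0185). HLA-DMA, which loads peptides, was at 3.54 to 6.54 CPM and 7.12 to 13.4 CPM (log2 fold change of 0.97, SE 0.24, edgeR adjusted p = 0.0478), also without overlap, and HLA-DRA, the class II alpha chain, at 11.8 to 39.7 CPM and 19.9 to 122 CPM (log2 fold change of 1.34, SE 0.31, edgeR adjusted p = 0.0306), with overlap. All of these calls were lost without L176, where the edgeR adjusted p was 0.0627 for CD74, 0.0945 for HLA-DRA and 0.1305 for HLA-DMA. Their log2 fold changes without L176 were 1.25, 1.10 and 0.87. The list held 0 DEGs without L176, 4 without L275 and 2 without both. Without Ctrl replicate L167 it also held 0, and HLA-DRA and HLA-DMA were not called in 8 and 12 of the 14 fits that left out 1 library.

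Other genes with small p-values were ADAP2, a GTPase-activating protein (2.06 to 3.68 CPM in Ctrl, 6.60 to 11.8 CPM in IR/CHT; log2 fold change of 1.66, SE 0.21, edgeR adjusted p = 2.4e-05), and MYO1F, a myosin of leukocytes (5.78 to 8.86 CPM in Ctrl, 11.4 to 25.1 CPM in IR/CHT; log2 fold change of 1.28, SE 0.21, edgeR adjusted p = 0.000944), both without overlap. HMOX1, the heme oxygenase that is induced by oxidative stress and heme, was the only DEG among 17 tested genes of oxidative defense and among 11 of iron handling (background for higher DEGs 0.581%). It was at 1.99 to 6.61 CPM in Ctrl (median 5.04) and 6.43 to 35.8 CPM in IR/CHT (median 11.8; log2 fold change of 1.53, SE 0.35, edgeR adjusted p = 0.0328), and L176 was its highest library, without which the edgeR adjusted p = 0.124; 5 Ctrl libraries had the same effect on its call. ADAMTS14, a procollagen peptidase, was with MMP12 the DEG pair among 19 tested matrix proteases and inhibitors (background for higher DEGs 0.581%). ADAMTS14 was at 14.02 ± 1.42 CPM in Ctrl and 21.8 ± 4.27 CPM in IR/CHT (SD, n = 7 each, log2 fold change of 0.64, SE 0.16, edgeR adjusted p = 0.0461), and it was not called in 12 of the 14 fits that left out 1 library.

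Among 11 tested smooth muscle markers only ACTG2, the enteric smooth muscle actin, was called (background for higher DEGs 0.581%). ACTG2 was at 226 CPM in L176, against 2.67 to 19.0 CPM in the other IR/CHT libraries and 2.35 to 7.52 CPM in Ctrl. Its log2 fold change was 3.18 (SE 0.75, edgeR adjusted p = 0.0395) with L176 and 0.90 (edgeR adjusted p = 0.25) without it, and the call was also lost without each of 7 Ctrl libraries. ACTA2, the smooth muscle actin that also marks activated interstitial cells, was at 201.1 ± 95.5 CPM in Ctrl and 566.8 ± 676 CPM in IR/CHT (SD, n = 7 each; log2 fold change of 1.49, SE 0.47, edgeR adjusted p = 0.137). It was at 2074 CPM in L176 and at 82.4 to 477.6 CPM in the other IR/CHT libraries, and without L176 the log2 fold change was 0.65 (edgeR adjusted p = 0.408).

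Of the 102 DEGs, 28 carry no symbol, and 2 of these were lower. ENSOCUG00000007493 had the smallest p-value of all lower DEGs (log2 fold change of -2.47, SE 0.235, edgeR adjusted p = 2.86e-07). ENSOCUG00000008689 was the other (log2 fold change of -2.28, SE 0.39, edgeR adjusted p = 0.0013), and neither gene overlapped between groups. When the 16 lower DEGs that carry a symbol were ranked by p-value, the first 12 were sterol genes except for 2. VEGFC, a growth factor for lymphatic endothelium, was at 54.8 to 79.8 CPM in Ctrl (median 74.6) and 30.05 to 51.6 CPM in IR/CHT (median 40.5), without overlap (log2 fold change of -0.76, SE 0.16, edgeR adjusted p = 0.0128). It was the only DEG among 27 tested genes of angiogenesis (background for lower DEGs 0.125%). CHST9, a sulfotransferase that acts on N-acetylgalactosamine, was at 13.6 to 27.5 CPM (median 18.8) and 5.61 to 12.8 CPM (median 8.97), also without overlap (log2 fold change of -1.04, SE 0.20, edgeR adjusted p = 0.00744). Without L275 and L176 the edgeR adjusted p of VEGFC was 0.0746 and that of CHST9 0.0435. VEGFC was also not called on plate 1 alone, on plate 2 alone, with the libraries of every tissue in 1 model or when tested against a fold change of 1.5. Of these alternatives, CHST9 was called on plate 1 alone and in none of the others.

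Of 49 lists with a tested member, 35 held no DEG by edgeR, while 2207 of all genes tested had an unadjusted p under 0.05. These included p53 targets and DNA damage (15 tested genes, median log2 fold change 0.25), the inflammatory response (27, 0.45), the interferon response (16, 0.25), collagen chains (18, 0.51), elastic fiber, proteoglycan and matricellular genes (33, 0.18), mitosis and cell division (25, 0.55) and endothelial markers (8, -0.32). CDKN1A, MDM2, IL6 and PF4 are not among the symbols of the tables. RUNX2, the master regulator of osteoblasts, was at 0.381 ± 0.319 CPM in Ctrl and 0.673 ± 0.399 CPM in IR/CHT (SD, n = 7 each, edgeR adjusted p = 0.532), and ALPL, the mineralising phosphatase, at 0.722 ± 0.244 and 1.06 ± 0.772 CPM (edgeR adjusted p = 0.63). The log2 fold change of ALPL was 0.54 with all libraries and 0.125 without L275. SPP1, which encodes osteopontin, was at 49.2 ± 18.1 and 48.8 ± 31.0 CPM (log2 fold change of -0.01, SE 0.39, edgeR adjusted p = 0.993). DKK1, a secreted Wnt inhibitor, was at 0.966 ± 0.570 and 0.778 ± 0.639 CPM (edgeR adjusted p = 0.859) and the cytokine gene IL1B at 0.495 ± 0.496 and 0.316 ± 0.382 CPM (edgeR adjusted p = 0.702), while TNF had 0 to 5 counts in Ctrl and 0 to 15 in IR/CHT and was too low to test. Without L275, 4 of the 35 lists held DEGs. These were the inflammatory response with 4 (CD14, AIF1, CYBB and TYROBP, all higher), and mitosis and cell division (TOP2A), B and plasma cell markers (BLNK) and cartilage markers (MATN1) with 1 each. Without L176, none of the 35 lists held a DEG by edgeR, while 1943 of all genes had an unadjusted p under 0.05. Without both libraries 3 of the lists did, where the inflammatory response held 2 (CD14 and TYROBP) and BLNK was not called. The medians without L275 were 0.07 for collagen chains, 0.09 for elastic fiber, proteoglycan and matricellular genes and -0.15 for endothelial markers. Among 13 tested genes of ossification the log2 fold changes ranged from -0.45 to 0.79.

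**Figure D4:**
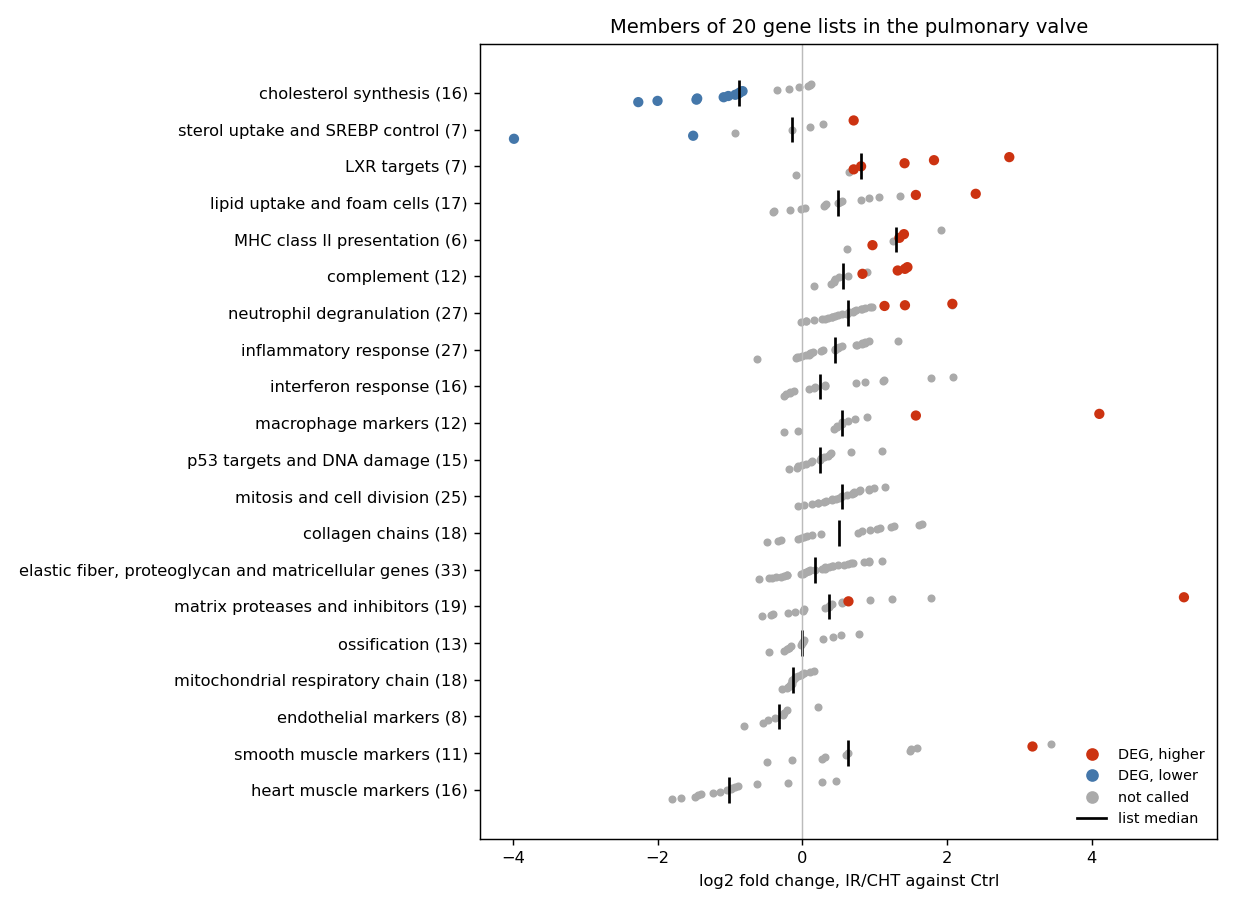
The log2 fold change between IR/CHT and Ctrl for each tested member of 20 gene lists in the pulmonary valve, with the number of tested members in parentheses; coloured points are DEGs, grey points are genes that were not called, and black lines are list medians. Cholesterol synthesis had a median of -0.87 with 10 lower DEGs, and LXR targets a median of 0.81 with 5 higher DEGs.

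Markers of other cell types gave the following levels. Neutrophil markers were found for 11 of 13 genes and summed to 1.48 to 3.27 CPM in Ctrl and 1.71 to 8.38 CPM in IR/CHT, with MMP8 and CTSG at 0 in all 14 libraries; T and natural killer cell markers (7 of 14 found) summed to 0.782 to 2.43 CPM and 0.767 to 2.27 CPM, with PRF1 at 0. B and plasma cell markers (9 of 10 found) summed to 6.43 to 8.11 CPM in Ctrl and 7.93 to 13.8 CPM in IR/CHT, of which BLNK, an adaptor of B cells and macrophages, gave 4.27 to 5.61 CPM and 4.52 to 10.7 CPM (edgeR adjusted p = 0.0717). Counts were high enough to test 3 neutrophil markers, 1 T and natural killer cell marker and 3 B and plasma cell markers, and with all libraries none of them was called by edgeR, whereas BLNK was called without L275 (log2 fold change of 0.84, edgeR adjusted p = 0.0153), without L180 or L549, on plate 1 alone and by DESeq2. The part of these and of the smooth muscle and heart muscle levels in the changes above was not tested, beyond the values without L176.

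All 7 IR/CHT libraries lay above all 7 Ctrl libraries for 65 genes (0.45% of genes tested) and below them for 27 genes (0.187%). Among the DEGs this held for 38 of the 84 higher and 15 of the 18 lower genes.

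The CHT group received the same diet and vitamin D2 without radiation. Because both groups were compared with the same Ctrl libraries, their values are given side by side. ABCA1 was at 546.4 to 756 CPM in CHT (log2 fold change 2.47 against Ctrl, SE 0.15, edgeR adjusted p = 1.58e-11), beside 2.86 in IR/CHT. For HMGCS1 the log2 fold changes were -1.09 (SE 0.16) in CHT and -1.45 (SE 0.15) in IR/CHT, for SQLE -2.05 (SE 0.26) and -2.27 (SE 0.25), and for FDFT1 -1.02 (SE 0.12) and -0.88 (SE 0.11). All of these passed the test in CHT as well. APOD was at 190 to 1284 CPM in CHT (log2 fold change of 4.07, SE 0.63), also past the test. In contrast, GPNMB (0.57, SE 0.30), ITGAM (0.74, SE 0.21), PLTP (0.49, SE 0.22), MERTK (0.07, SE 0.13) and CD74 (0.38, SE 0.30) did not pass the test in CHT, with edgeR adjusted p-values of 0.523, 0.202, 0.449, 0.922 and 0.728. That a gene passed in one group only does not show that the groups differ, which was tested directly.

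IR/CHT against CHT, groups whose stated treatments differ by irradiation, gave 11 DEGs, all higher in IR/CHT (0.0761% of 14450 genes tested). The numbers that open the library names, read as rabbits, fall in separate series for IR/CHT, CHT and Ctrl. What these series stand for is not given in the sources used here. A difference between them cannot be told apart from irradiation here, or from treatment against Ctrl. GPNMB was at 9.21 ± 2.16 CPM in the 6 CHT libraries and 32.6 ± 15.7 CPM in the 7 IR/CHT libraries (log2 fold change of 1.82, SE 0.30, edgeR adjusted p = 0.0198). FAM13A was at 57.3 ± 6.94 and 92.8 ± 20.5 CPM (0.70, SE 0.12, edgeR adjusted p = 0.0198), and ADAMTSL3, a matrix glycoprotein, at 68.1 ± 10.2 and 152.8 ± 69.1 CPM (1.17, SE 0.20, edgeR adjusted p = 0.0198). MERTK was also called (log2 fold change of 0.70, SE 0.13, edgeR adjusted p = 0.0236). DDB2, a nucleotide excision repair gene that p53 activates, was at 12.6 ± 1.79 CPM in CHT and 19.4 ± 1.48 CPM in IR/CHT (0.62, SE 0.13, edgeR adjusted p = 0.0458); it is given as one of the few called genes, chosen after its values were seen. ABCA1 differed by 0.40 (SE 0.15, edgeR adjusted p = 0.12) and HMGCS1 by -0.37 (SE 0.16, edgeR adjusted p = 0.161), neither of which passed. PLTP (0.92, SE 0.22, edgeR adjusted p = 0.0712), CD74 (1.03, SE 0.31, edgeR adjusted p = 0.0944) and ITGAM (0.68, SE 0.21, edgeR adjusted p = 0.1002) did not pass either.

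This count depended on single libraries. It was 0 by edgeR without CHT replicate L171, L188 or L230, where 3850, 2944 and 3047 genes had an unadjusted p under 0.05. It was also 0 with only the CHT and IR/CHT libraries in the model, where 2604 genes had an unadjusted p under 0.05. It was 3 without CHT replicate L267, 4 without L246, 6 without IR/CHT replicate L549, 18 without L259 and 24 without L180. It was 4 without L176 and 5 without both L176 and L275, and DESeq2 called 461 genes. Heart muscle markers summed to 28.2 to 70.0 CPM in CHT and 79.4 to 1966 CPM in IR/CHT, without overlap, and their part in this comparison was not tested.

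By the number that opens each library name, read as the rabbit, the 27 rabbits also gave 27 tricuspid, 27 aortic and 26 mitral valves. The response of the pulmonary valve to IR/CHT could thus be set against theirs. The IR/CHT and Ctrl libraries numbered 13 for the mitral valve and 14 for each other valve. The difference between responses was tested in 1 model per pair of valves, as the log2 fold change of IR/CHT against Ctrl in the pulmonary valve minus that in the other valve, at an edgeR adjusted p under 0.05. Against the tricuspid valve, the other valve of the right heart, 1 of 15372 genes differed (0.00651%), and 429 had an unadjusted p under 0.05. That gene was MC5R, a melanocortin receptor, which was at 0.0147 ± 0.0252 CPM in Ctrl and 0.430 ± 0.725 CPM in IR/CHT in the pulmonary valve and at 3.57 ± 4.52 and 0.0965 ± 0.147 CPM in the tricuspid valve (edgeR adjusted p = 0.0235). It was not called with the rabbit as a block or without L275 and L176, which both gave 0 genes. None of the 38 named DEGs differed in response between these valves. ABCA1 rose by 2.86 in the pulmonary and 2.96 in the tricuspid valve (difference -0.09, SE 0.24), and HMGCS1 changed by -1.45 and -1.53 (difference 0.08, SE 0.25).

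Against the aortic valve, 6416 of 15975 genes differed (40.2%), of which 6141 had the smaller change in the pulmonary valve, and against the mitral valve 1444 of 15872 genes (9.1%), of which 1368 had the smaller change there. The median difference over all genes tested was 0.19 for the aortic and 0.04 for the mitral valve. Of the 38 named DEGs, 27 differed from the aortic valve and 15 from the mitral valve, of which 22 and 13 had the smaller change in the pulmonary valve.

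Several genes of macrophages rose less in the pulmonary than in the aortic valve. GPNMB rose by 2.42 (SE 0.32) in the pulmonary valve, from 6.13 ± 1.57 to 32.8 ± 16.0 CPM, and by 9.502 (SE 0.44) in the aortic valve, from 7.28 ± 2.56 to 5286 ± 2495 CPM (difference -7.08, SE 0.48, edgeR adjusted p = 2.86e-16). ITGAM rose by 1.43 and 6.13 (difference -4.70, SE 0.37, edgeR adjusted p = 3.14e-14) and MPEG1 by 1.85 and 5.66 (difference -3.81, SE 0.50, edgeR adjusted p = 2.9e-08). Of 12 tested macrophage markers, 7 had a lower log2 fold change in the pulmonary than in the aortic valve (background 16.8%) and none a higher one (background 23.3%), while 0 of 12 differed from the tricuspid valve, where 429 of all genes had an unadjusted p under 0.05. ABCA1 also rose less, by 2.88 against 4.92 (difference -2.04, SE 0.29, edgeR adjusted p = 2.17e-07).

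Among sterol genes the differences went both ways or did not pass the test. SQLE fell by 2.25 in the pulmonary and 2.18 in the aortic valve (difference -0.07, SE 0.36, edgeR adjusted p = 0.892) and HMGCS1 by 1.44 and 1.55 (difference 0.12, SE 0.35, edgeR adjusted p = 0.821). FDFT1 was an exception and fell less in the pulmonary valve, by 0.87 against 2.35 (difference 1.49, SE 0.36, edgeR adjusted p = 0.00083). Of 16 tested cholesterol synthesis genes, 7 differed between the pulmonary and aortic valves, beside 40.2% of all genes, of which 4 were higher in log2 fold change in the pulmonary valve and 3 lower, and the median log2 fold changes of the list were -0.86 and -1.27. Against the mitral valve, 5 of the 16 differed, all with a higher log2 fold change in the pulmonary valve (background 3.56%) and none with a lower one (background 5.54%). HMGCS1 was one of them and fell by 1.44 in the pulmonary and 2.13 in the mitral valve (difference 0.69, SE 0.23, edgeR adjusted p = 0.0492).

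The 5 named DEGs with a larger change in the pulmonary than the aortic valve were APOD, C1R, TIMD4, SC5D and NSDHL. APOD rose by 5.28 in the pulmonary valve, against 1.63 in the aortic valve (difference 3.65, SE 0.81, edgeR adjusted p = 0.000289) and 2.79 in the mitral valve (difference 2.49, SE 0.62, edgeR adjusted p = 0.00595), but its Ctrl level also differed, with 28.1 ± 21.0 CPM in the pulmonary, 79.5 ± 64.8 CPM in the aortic and 245.97 ± 53.3 CPM in the mitral valve. C1R rose by 1.34, against 0.03 in the aortic valve (difference 1.31, SE 0.31, edgeR adjusted p = 0.000687). The genes with the smallest p-values of higher log2 fold change in the pulmonary than the aortic valve had the larger change in the aortic valve. These were FHOD3, a formin (0.30 against -2.75), PDE3A, a phosphodiesterase (0.18 against -1.60), and CNGA2, a cyclic nucleotide-gated channel (0.12 against -4.13).

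**Figure D5:**
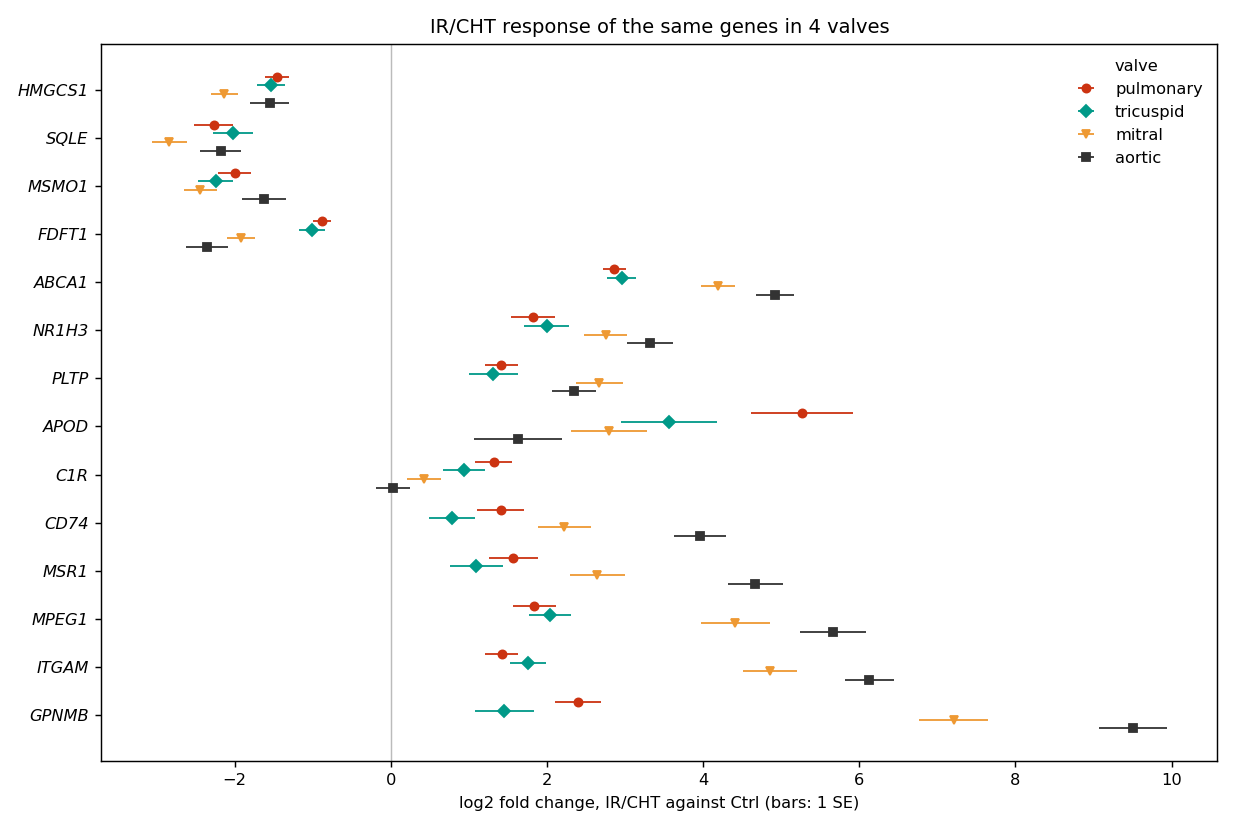
The log2 fold change between IR/CHT and Ctrl of 14 genes in the pulmonary, tricuspid, mitral and aortic valves, with bars of 1 SE; the pulmonary values are from the model of that valve and the others from the models of both valves. HMGCS1 was at -1.45 in the pulmonary and -1.53 in the tricuspid valve, whereas GPNMB was at 2.40 in the pulmonary and 9.502 in the aortic valve.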

How the data were processed

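The authors deposited whole-number counts of read pairs per gene, neither normalized nor pooled, in 1 table for each of 2 plates. The study's methods name the nf-core rnaseq pipeline, the OryCun2.0 assembly and an Ensembl annotation, and the submitters' processing notes name bcl2fastq 2.20. Genes that share reads with paralogs, overlapping genes or antisense genes are uncertain. By the numbers that open their names, the 7 pulmonary valve libraries of Ctrl and of IR/CHT each came from 7 different rabbits.

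In R 4.3.3, edgeR 4.0.16 was run with its filter on low counts, TMM scaling and 1 robust quasi-likelihood model of the 27 pulmonary valve libraries in 4 groups, without covariates. P-values were adjusted over all genes tested by Benjamini-Hochberg, and DEGs had an adjusted p under 0.05 and a fold change over 1.5. SE is the log2 fold change divided by the root of the F statistic, and CPM use TMM-scaled totals. Where all libraries of a group had 3 counts or fewer, the fold against a floor of 3 counts is a lower bound. No pair of libraries agreed within sampling noise, and the scripts were tested on simulated data.

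The comparison, the 50 gene lists and the tests were chosen with earlier results of these data known. By rule, the named genes were the 12 of smallest p in each direction among DEGs that have a symbol, the 3 of each direction with the largest fold change at a mean of at least 5 CPM, the 3 DEGs of smallest p in each list, 17 genes set by name, the 2 most abundant markers of each cell type, and the 3 genes of smallest p in each direction of the other comparisons.

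Valves were paired by the number that opens the library names, which was read as the rabbit although the labels do not say so. With group means removed, the pulmonary valve correlated with the tricuspid, aortic and mitral valve of the same rabbit at a median of 0.32, 0.182 and 0.243 (above 0.1 in 23 of 27, 19 of 27 and 20 of 26 rabbits), and with those of other rabbits at -0.0132, -0.00796 and -0.00601. Alternatives were DESeq2 1.42.0, its size factors, no filter, other libraries in the model, plate, a test against the fold threshold, the rabbit as a block and libraries left out. Leaving out L275 with L176, the model of CHT and IR/CHT alone, and fold bounds without single libraries were chosen after seeing the data. Promoter and protein sequences were not analysed here, and some named genes are not reported here.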

Additional observations from a re-analysis of the deposited data

Results flagged for a closer look

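Of 112 groups of 7 libraries tested, 11 held a library whose gap to the others was unusually large, 9 of them in IR/CHT, and chance gives about 1 in 20 groups. L176 was the highest IR/CHT library for ACTG2 (225.8 CPM), C1R (986.9 CPM), HMOX1 (35.75 CPM), the smooth muscle markers (25800 CPM summed) and the red blood cell markers (49.27 CPM summed). L275 was the lowest IR/CHT library for the endothelial markers (106.8 CPM summed) and the macrophage markers (338.9 CPM summed). TIMD4 was highest in L549 among IR/CHT (15.88 CPM) and in L263 among Ctrl (0.1475 CPM, which is 3 counts), MARCO was highest in L242 among Ctrl (0.7395 CPM), and the lymphoid organ markers were highest in L259 among IR/CHT (0.87 CPM summed).

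The response to IR/CHT differed between the pulmonary valve and the tricuspid, aortic and mitral valves, by a test of the difference itself, for 1, 6416 and 1444 genes, among them 27 and 15 of the 38 named DEGs for the aortic and mitral valves. Differences are given as the log2 fold change in the pulmonary valve minus that in the other valve. Against the tricuspid valve, MC5R differed by 9.44. This is a model estimate and not a lower bound, and it rests on very low counts in the pulmonary valve (mean 0.0147 CPM in Ctrl), so its size is uncertain. Against the aortic valve, FHOD3 differed by 3.05, PDE3A by 1.79 and CNGA2 by 4.25, and GLB1, the lysosomal beta-galactosidase, by -3.53, CCDC15 by -3.72 and GPNMB by -7.08. Against the mitral valve, PCNX2 differed by 0.87, ABI3BP by 1.49 and DDR2, a collagen receptor, by 0.80, and the cathepsin gene CTSV by -2.26, PLAU, the urokinase, by -3.27 and the adhesion molecule gene CADM1 by -2.49.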

How the results depend on the processing

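Against Ctrl, the 102 DEGs were 303 with DESeq2, 62 with only the 2 groups in the model, 2 on plate 2 alone and 23 when tested against a fold change of 1.5. Without single libraries the count ranged from 50 to 144. DESeq2 size factors (102), no filter (80), the libraries of every tissue in 1 model (87), plate as a covariate (112), plate 1 alone (99) and leaving out L275 and L176 (87) gave counts within 1.5 times. Of the 38 named DEGs, none changed sign, 28 were called without each library in turn, and 2 in all 24 alternatives; MMP12 was called in the 22 that gave it a value. Against CHT, the 11 DEGs were 461 with DESeq2, 170 with the libraries of every tissue in 1 model, 17 with plate as a covariate, 0 with only CHT and IR/CHT in the model and 5 without L275 and L176, and ranged from 0 to 24 without single libraries. The cause of these shifts was not tested. The planned model of Ctrl and IR/CHT alone holds no CHT library and was not run for this comparison.

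With the rabbit as a replicate block, the pairing of valves gave 0, 6264 and 1649 genes that differed from the tricuspid, aortic and mitral valves, and without L275 and L176 these were 0, 5425 and 1346. No paired analysis was possible for IR/CHT against Ctrl or CHT because these groups were different rabbits. Low counts limit TIMD4, MMP12, MARCO and HK3, and TNF was too low to test.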

Other observations

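Of the 102 DEGs, 67 were in none of the gene lists. The genes given here were picked from them after their values were seen. Several act in lipid metabolism. MID1IP1, which promotes fatty acid synthesis, was at 7.74 to 12.4 CPM in Ctrl and 19.2 to 32.4 CPM in IR/CHT (log2 fold change of 1.08, SE 0.20, edgeR adjusted p = 0.00444), and FADS2, a fatty acid desaturase, at 9.81 to 14.4 and 17.0 to 66.7 CPM (1.29, SE 0.25, edgeR adjusted p = 0.00802), both without overlap. EEPD1 was at 0.352 to 0.934 and 1.18 to 5.53 CPM (2.38, SE 0.41, edgeR adjusted p = 0.00165). ACSL4, which activates polyunsaturated fatty acids, was lower, with 315 to 405 CPM in Ctrl and 95.4 to 293 CPM in IR/CHT (-0.66, SE 0.15, edgeR adjusted p = 0.0245). It was not called without L275 or L176, with a log2 fold change of -0.53 without L275, its lowest library, which is under the fold threshold.

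Others are genes of immune cells. The transcription factor gene IRF5 was at 0.801 to 2.02 CPM in Ctrl and 2.19 to 8.42 CPM in IR/CHT (log2 fold change of 1.59, SE 0.33, edgeR adjusted p = 0.0153), and IL10RA, an interleukin-10 receptor chain, at 1.28 to 4.66 and 5.37 to 9.85 CPM (1.19, SE 0.26, edgeR adjusted p = 0.0239). Neither overlapped between groups, and neither was called without L176 (edgeR adjusted p = 0.052 and 0.0718).

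Without L275, the library with few endothelial and macrophage transcripts, 45 genes were called that were not called with it. They included VSIG4, a complement receptor of macrophages (log2 fold change 0.92, edgeR adjusted p = 5.1e-05), LIPA, the lysosomal acid lipase (0.63, edgeR adjusted p = 0.000579), TYROBP, a signalling adaptor of myeloid cells (0.88, edgeR adjusted p = 0.0074), and CTSS, a cathepsin (0.79, edgeR adjusted p = 0.0142). Without both L275 and L176, CTSS was not called and VSIG4, LIPA and TYROBP were.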
